A study of Mus musculus with 7 samples.

Results

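In the striatal cell line with expanded huntingtin, 1357 FRA2 binding events held at least 8 times the reads of the line with the short allele. These FRA2 sites strongly gained in Q111 were chosen by their FRA2 reads. A binding event belonged to the set if it held 40 or more reads in the Q111 line and at least 8 times the Q7 reads plus 0.5, on reads as deposited. The rule took 1357 of 64579 FRA2 events, 2.10% of those listed, from the same FRA2 reads that are described below, so their FRA2 difference between the lines is a description and carries no test. The mirror rule, with the lines exchanged, took 781 events (1.21%).

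The data come from chromatin immunoprecipitation and sequencing (ChIP-seq) in STHdhQ7 and STHdhQ111 cells, striatal lines made from mouse embryos at day 14 on a mixed 129SvEv/CD1 strain. The genotypes are HdhQ7/Q7, with a short glutamine tract in huntingtin, and HdhQ111/Q111, with a tract in the range that causes Huntington's disease. Both lines were used at fewer than 15 passages, grown at 33 °C and then held at 39 °C for 2 days, and each genotype is represented by 1 line, so genotype and line cannot be told apart. FRA2 and JUND were mapped in both lines and SOX2 in Q7, and an IgG sample was listed for each line. In each sample replicates 1 and 2 had been pooled, which leaves 1 library per antibody and line and no spread between replicates. Events held 3340554 FRA2 reads for Q7 and 3498922 for Q111, 1660158 and 1609483 JUND reads, and 1193914 SOX2 reads in Q7. Expression was not analysed here, so the lines were not checked against marker genes.

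FRA2 (Fosl2) is a Fos family protein that binds DNA only as a dimer, usually with a Jun family partner such as JUND, and the dimer is called AP-1. AP-1 dimers sit mostly at enhancers far from gene starts, and their occupancy follows both signalling and the accessibility of chromatin. SOX2 is a transcription factor of neural progenitors that binds enhancers and helps to keep progenitors undifferentiated. FRA2 at a site therefore raises the questions of whether its partner is there too, whether neighbouring sites move with it, and whether SOX2 binds nearby.

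Each gained site is a single base position on mm9. Q111 reads at these sites ran from 40 to 1489 with a median of 79, and Q7 reads from 0 to 183 with a median of 6. The ratio of Q111 reads to Q7 reads plus 0.5 ran from 8 to 314, with a median of 12, and reached 16 at 393 sites and 32 at 84. At 465 sites there were 100 or more Q111 reads, and at 97 there were 200 or more. The deposited present marks put 1315 sites in Q111 alone and 42 in both lines. FRA2 was therefore marked as bound in Q7 at few of the gained sites, and the depth there does not show whether the remaining sites lack FRA2 or hold less than could be detected.

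The gained site with the most reads was unlike the others. Chromosome 11 position 3086860 carried 1489 FRA2 reads in Q111 against 183 in Q7, beside 106.8 control reads in Q7 and 64 in Q111. It was the only gained site with 40 or more control reads in either line, and a repeat at this position was not tested. Control reads were lower at the next sites. Chromosome 10 position 97256625 held 618 reads in Q111 and 29 in Q7 (20.3-fold, 95% Clopper-Pearson interval 14.2 to 31.1), with 2.4 control reads in Q7 and 0 in Q111. These intervals cover counting error only, with no spread between replicates. They also take reads as independent, which PCR copies are not. The sites were chosen on these same reads, so FRA2 folds and limits at gained sites lean high and only describe them. Chromosome 19 position 55033006 followed, with 581 reads against 38. Chromosome 15 gave 3 of the 10 strongest sites, with 508 reads against 30 at position 71157260, 448 against 44 at position 61860138 and 438.8 against 10.6 at position 20572986. All 10 were high in Q111, and even the least occupied of them kept 412 reads in Q111 against 32 in Q7, at chromosome 10 position 69889375. The other 3 lay at chromosome 6 position 95219739 (493 and 13 reads), chromosome 9 position 123844359 (440 and 36.4, with control reads of 23.3 for Q7 and 36.5 for Q111) and chromosome 11 position 110038492 (414 and 12).

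At 10 gained sites no Q7 read was assigned. The strongest was chromosome 11 position 106815657 with 157 reads in Q111. This is 50.7-fold with a floor of 3 reads put in place of the 0 in Q7 (lower Clopper-Pearson limit 40.7-fold). Chromosome 12 position 52287016 followed with 87.3 reads (28.2-fold against that floor, lower limit 22.4). Chromosome 4 position 137803373 had 78.7 reads (25.4-fold, lower limit 20.3). It lay 140 bp from another event with 148.3 reads in Q111 and 6 in Q7. Among sites with some Q7 reads, chromosome 19 position 51019699 stood out with 282.3 Q111 reads against 2. Chromosome 17 position 84284501 had 179.3 against 0.8, but 403 against 18 with events within 250 bp summed, which took its log2 fold from 7.07 to 4.40. A zero in Q7 did not always mean an empty site. At chromosome 6 position 71673680, with 54.4 reads in Q111 and 0 in Q7, a second FRA2 event 18 bp away was listed, and the 2 other events within 250 bp together held 88 reads in Q7 and 28.6 in Q111. With reads of events within 250 bp summed, the log2 fold of this site went from 6.73 to -0.13, so that it was not a gained site. The same summing left 1333 of the 1357 sites within the rule, and only this site fell below 2-fold.

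The rule cuts through a continuous distribution. Just inside it on reads were chromosome 1 positions 57233427, 143844831 and 193626598, each with 40 reads in Q111, and just outside were chromosome 19 position 59146053 (39.9 and 4.1 reads), chromosome 5 position 74174003 (39.8 and 2.1) and chromosome 1 position 143338955 (39.5 and 4). On the ratio, chromosome 1 positions 65354105, 80415063 and 187865897 stood at exactly 8. Just outside were chromosome 4 position 136952876 at 7.98, chromosome 8 position 46064194 at 7.95 and chromosome 3 position 24589461 at 7.95. There were 260 gained sites with a ratio below 9 and 307 other events with 40 or more Q111 reads and a ratio from 7 to below 8.

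Control reads did not follow the FRA2 difference. Their mean at gained sites was 3.86 in Q7 and 3.96 in Q111, against 4.30 and 5.71 over all FRA2 events. Control reads in Q111 were thus lower at gained sites than over all events. Other FRA2 events marked present in Q111 alone had similar means, 4.03 in Q7 and 3.81 in Q111. Q111 control reads were above Q7 control reads at 46.6% of gained sites and at 57.5% of all FRA2 events. At 330 gained sites the Q7 control reads exceeded the Q7 FRA2 reads. How far Q7 is empty there was not measured beyond that. The numbers in each direction depend on the scaling. On raw reads gained sites outnumbered lost sites 1.74 to 1, and with libraries scaled by their control reads there were 657 gained and 1251 lost.

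**Figure D1:**
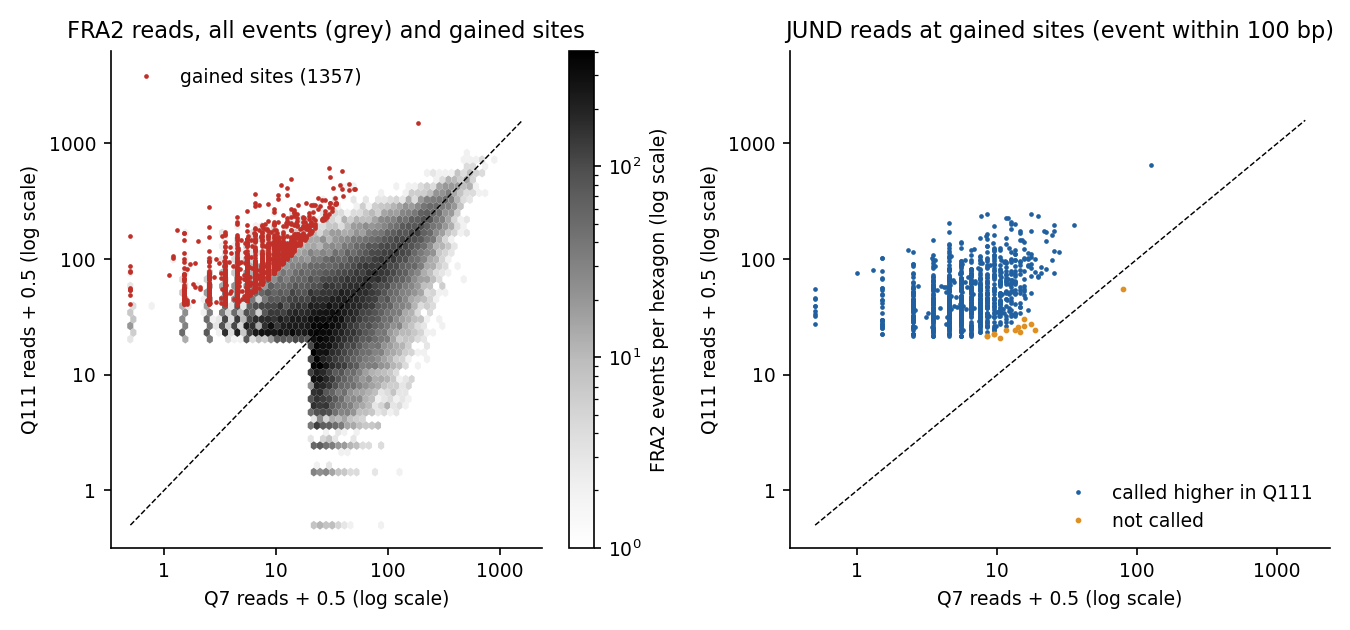
Left, FRA2 reads in Q7 (horizontal) and Q111 (vertical) with 0.5 added, on log axes, for all FRA2 events (grey, darker for more events) and gained sites (red). Right, JUND reads in the same form for the JUND event within 100 bp of a gained site, blue where called higher in Q111 and orange where not called, with the dashed line marking equal reads. Gained sites were cut from the upper left edge of the FRA2 cloud by the rule, and 999 of the 1000 JUND events had folds above 1.

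JUND was measured with another antibody in its own libraries, which the rule did not use. A JUND event lay within 100 bp of 1006 gained sites (74.1%, Wilson interval 71.7 to 76.4%), at a median distance of 15 bp. One was as near to 55.3% of all FRA2 events, but to 82.9% of the other events with 40 or more Q111 reads and 81.4% of the lost sites, and these differences in share were not tested. These were 1000 distinct JUND events, since 12 gained sites shared one with another. Each JUND event of the whole table was put to an exact binomial test, two-sided, on its Q111 share. The p-values were Benjamini-Hochberg adjusted across the 46583 events, and an event was called if the adjusted p was below 0.05 and the fold at least 2. At gained sites 985 of the 1000 JUND events were called higher in Q111, 15 were not called and 0 were called higher in Q7. Over all JUND events 17.7% were called higher in Q111 and 23.6% higher in Q7. At the other FRA2 events with 40 or more Q111 reads, 19.2% of JUND events were called higher in Q111, and at events lost by the mirror rule 629 of 632 were called higher in Q7. Other FRA2 events marked present in Q111 alone came closer to the gained sites. Of their JUND events, 2976 of 4219 (70.5%) were called higher in Q111, with a median log2 fold of 1.58. The test compares 2 pooled libraries, not the genotypes. It also covers only listed JUND events: a position with few JUND reads in both lines is not in the table.

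JUND reads at gained sites ran from 20.2 to 649 in Q111 (median 44.5) and from 0 to 126 in Q7 (median 6). The median log2 fold was 2.87, with quartiles of 2.27 and 3.53, against -0.13 over all JUND events. A 4-fold difference was reached by 831 of the 1000 events and an 8-fold difference by 449. JUND was marked present in Q111 at all 1000 and in Q7 at 11. The numbers of the FRA2 rule, applied to JUND reads, were met by 350 of these events, while 1.33% of all JUND events met them. In total 619 JUND events met them, 537 of which had a FRA2 event within 100 bp. Across the 1000 events, FRA2 and JUND reads in Q111 had a Spearman rho of 0.63 and their log2 folds one of 0.34. Both values are descriptions over positions that share cell lines, and the rule had narrowed the FRA2 range.

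The strongest JUND event at a gained site was again the one with many control reads, at chromosome 11 position 3086838, with 649 reads in Q111 and 126 in Q7. The next, at chromosome 11 position 110038490, held 246 Q111 reads against 8, a log2 fold of 4.79 (fold interval 14.6 to 68.5, exact binomial test, Benjamini-Hochberg adjusted p = 6.35e-56). Chromosome 15 position 20572962 gave 235.3 reads against 7.2, a log2 fold of 4.86. At chromosome 19 position 55033011 JUND held 237 reads in Q111 and 19 in Q7, and at chromosome 8 position 48026858 it held 242.4 and 16.8. Each of these events lay within 24 bp of its FRA2 position and differed in the same direction. At 10 of the 1000 events no JUND read was left in Q7 after rounding. Against the floor of 3 reads the highest fold was at chromosome 6 position 99014227, with 74.9 Q111 reads against 0.5 (23.8-fold against the floor). Chromosome 19 position 28877992 came next, with 54.4 reads and 0 (17.3-fold against the floor, lower Clopper-Pearson limit 13.5).

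The 15 JUND events that were not called had 29 to 134 reads over both lines. The only one with a fold below 1 was at chromosome 6 position 71673710, with 55 reads in Q111 and 79 in Q7, beside the FRA2 site that summing with its neighbour had removed. Its log2 fold was -0.59 (exact binomial test, Benjamini-Hochberg adjusted p = 0.042), below the 2-fold limit. The others had folds above 1, from 24 reads against 18 at chromosome 12 position 70935513 upwards.

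Gained sites without a listed JUND event had fewer FRA2 reads. The 351 sites with no JUND event within 100 bp had a median of 53 Q111 FRA2 reads, against 92 at the 1006 with one. Divided into 4 groups of near equal size by Q111 reads, gained sites had a JUND event in 43.8% of cases (40 to 55 reads), 68.4%, 87.3% and 97.1% (120 to 1489 reads). Other FRA2 events in the same ranges of Q111 reads had one in 62.6%, 81.0%, 94.4% and 99.04% of cases, and lost events in the same ranges of Q7 reads in 62.4%, 78.2%, 91.2% and 99.4%. The other events with 40 or more Q111 reads also carried FRA2 reads in Q7 (median 61, against 6 at gained sites), while lost events held few in Q111 (median 5.1). Whether the lower shares reflect less JUND or fewer reads was not tested. A JUND event lay within 1 kb of 78.6% of gained sites and 64.2% of all FRA2 events. The share was 86.4% for the other events with 40 or more Q111 reads and 88.5% for lost sites. No JUND event lay within 1 kb of the remaining 290 gained sites. The strongest of these was chromosome 15 position 64853574 (162 FRA2 reads in Q111 and 8 in Q7), followed by chromosome 13 position 38742317 and chromosome 5 position 125968727 (152 and 10 at each), chromosome 7 position 85793486 (149 and 7) and chromosome 1 position 146299488 (144.1 and 7). All 5 were as strong as sites at which JUND was listed.

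Gained sites were found on all autosomes and the X chromosome. Their share of the FRA2 events of a chromosome was highest on chromosome 8 (123 of 3762, 3.27%) and chromosome 14 (58 of 1926, 3.01%), and lowest on chromosome 17 (28 of 2551, 1.10%). Chromosomes 6, 10 and 18 followed with 2.69%, 2.55% and 2.51%. Lost sites were distributed differently. They outnumbered gained sites on chromosome 9 (68 and 38), chromosome 7 (55 and 44) and chromosome 17 (40 and 28), while on chromosome 11 there were 95 gained and 26 lost sites. Taken over every FRA2 event of a chromosome, the median log2 fold was 0.14 on chromosome 8, 0.34 on chromosome 14 and -0.47 on chromosome 17. On X it was 0.14 beside a gained share of 1.29%, and on chromosome 19 it was -0.26 beside 2.06%. These medians come from the FRA2 reads that the rule used. Gained shares and medians went largely together over the chromosomes, with X and chromosome 19 among the exceptions. The control ratio of Q111 to Q7, relative to that of all FRA2 events, lay between -0.34 (X) and 0.22 (chromosome 11) on the log2 scale, with 0.09 on chromosome 8, 0.01 on chromosome 14 and 0.08 on chromosome 17. The part of chromosome copy number in these shares was not tested. The JUND log2 fold at gained sites varied little by chromosome, with medians from 2.58 (X) to 3.32 (chromosome 16).

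**Figure D2:**
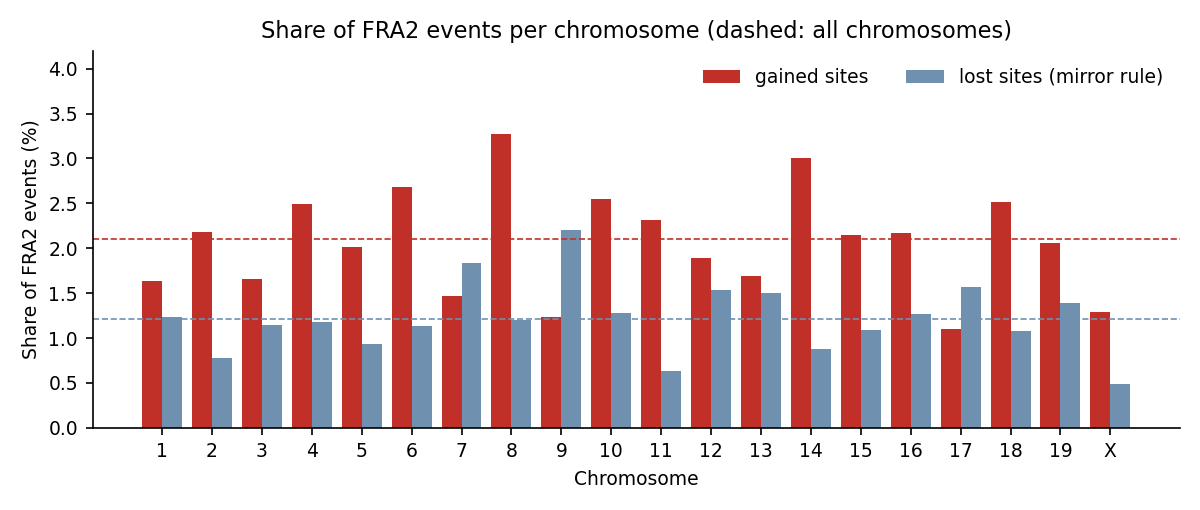
Bars give the share of the FRA2 events of each chromosome, in percent, that were gained (red) or lost by the mirror rule (blue), and dashed lines give the shares over all chromosomes (2.10% and 1.21%). Red bars were tallest on chromosomes 8 and 14, and blue bars exceeded red bars on chromosomes 7, 9 and 17.

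Gained sites lay close to one another. Another gained site was found within 100 kb of 537 of the 1357 (39.6%), where 29.8% of lost sites had another lost site, and within 1 kb of 124. Lost sites were fewer (781), and the part of number in these shares was not tested. Of the FRA2 events next in order to a gained site, 14.6% (396 of 2713) were gained sites themselves, against the 2.10% of all events, and 0.442% were lost sites. Lost sites behaved alike, with 7.81% lost sites among their neighbours, against the 1.21% of all events. A lost site lay within 100 kb of 55 gained sites (4.05%). Chained by gaps of at most 100 kb, the gained sites fell into 205 groups of 2 or more, which held 537 sites, and 820 single sites. There were 71 groups of 3 or more with 269 sites, and 13 groups of 5 or more with 83 sites. Stronger gained sites were grouped somewhat more often: 34.4% of the lowest group by Q111 reads and 44.5% of the highest had another gained site within 100 kb.

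The 2 largest groups held 9 gained sites each. On chromosome 2, between positions 134590430 and 134926252, the gained sites had 41 to 283 reads in Q111 and 3 to 29 in Q7. The strongest, at position 134738602, had 283 and 29 reads, and the next, at position 134794309, had 207 and 4. JUND events accompanied 7 of the 9, and all 7 were called higher in Q111, with log2 folds from 1.51 at position 134738602 to 5.16 at position 134645388 (56 JUND reads against 1). A further 14 FRA2 events lay between them, and all 14 also had folds above 1, with a median log2 fold of 1.85. On chromosome 8, between positions 80189081 and 80445854, the gained sites had 57 to 141 reads in Q111 and 2 to 12 in Q7. The JUND events at 8 of these 9 were called higher in Q111, with a median log2 fold of 2.58. No SOX2 event lay in this stretch of 256.8 kb, and other stretches of that length were not counted for SOX2.

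**Figure D3:**
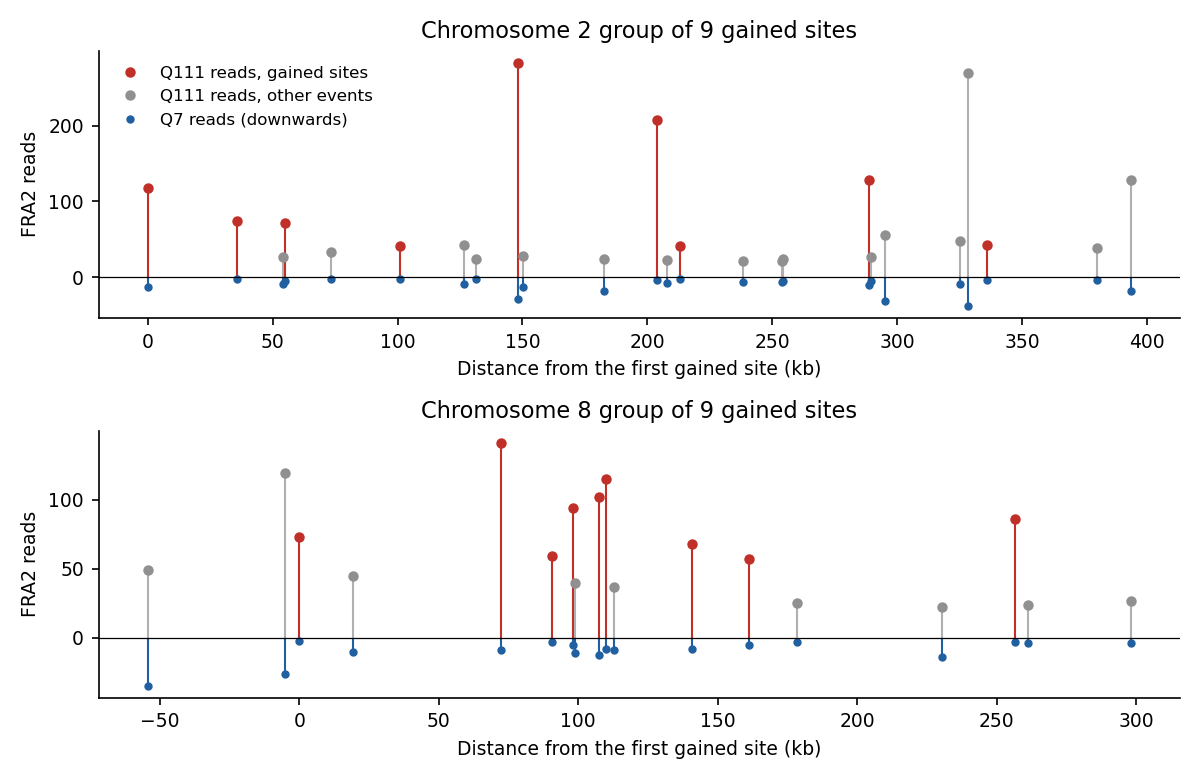
FRA2 reads in Q111 (upwards, red for gained sites and grey for other events) and Q7 (downwards, blue) by distance in kb from the first gained site, for the chromosome 2 group (top) and the chromosome 8 group (bottom), with 100 kb on either side. In both groups every gained site had at least 41 reads in Q111 and at most 29 in Q7, and the grey events between them leaned the same way.

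The next groups showed the same form. On chromosome 8 there were 2 more within 0.5 Mb, with 6 gained sites between positions 58547644 and 58700996 (45 to 92.8 reads in Q111, 2 to 5 in Q7) and 8 between positions 58819796 and 58955101 (43 to 403 reads in Q111, 2 to 49 in Q7). The strongest sites of the latter were position 58918421, with 403 and 49 reads, and position 58922661, with 355.8 and 10. JUND at 7 of these 8 was called higher in Q111, with 226.5 reads against 11.5 at the JUND event beside position 58922661. On chromosome 19, 8 of the 11 FRA2 events between positions 50855281 and 51041914 were gained sites, with 43.7 to 282.3 reads in Q111 and 2 to 12 in Q7. Positions 51019482 and 51019699 among them form 1 site of 326 reads against 4 with events within 250 bp summed. Control reads in that stretch averaged 3.71 in Q7 and 1.14 in Q111. The groups of 6 on chromosome 4 (positions 105230225 to 105339093) and chromosome 16 (positions 95494888 to 95658464) had strongest sites of 243 and 139 Q111 reads, against 29 and 6 in Q7. Their JUND events, 5 and 3, were all called higher in Q111. The remaining group of 6, on chromosome 8 between positions 79001421 and 79125649, differed: JUND was listed at 4 sites and called at 2, with a median log2 fold of 1.41. Its strongest site, position 79066540, had 85 FRA2 reads against 10 and only 24 JUND reads against 13 (log2 fold 0.79, exact binomial test, Benjamini-Hochberg adjusted p = 0.17).

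Within the 71 groups of 3 or more lay 223 other FRA2 events, of which 210 had folds above 1, as did 49.0% of all FRA2 events outside the gained set. None of the 223 was a lost site, which is near the 1.21% of all events that were. The same shift was seen around gained sites in general, as a description of the contrast the rule used. The 222 other FRA2 events within 1 kb had a median log2 fold of 2.20, and 96.9% of them had folds above 1. At 1 to 10 kb the median was 1.22, at 10 to 30 kb 0.69, at 30 to 100 kb 0.39 and at 100 to 300 kb 0.13. Beyond 1 Mb it was -0.20. Among the events marked present in both lines the median was smaller, 1.55 within 1 kb and 0.40 at 1 to 10 kb. Around lost sites the values mirrored these, with -2.34 within 1 kb and -1.05 at 1 to 10 kb.

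**Figure D4:**
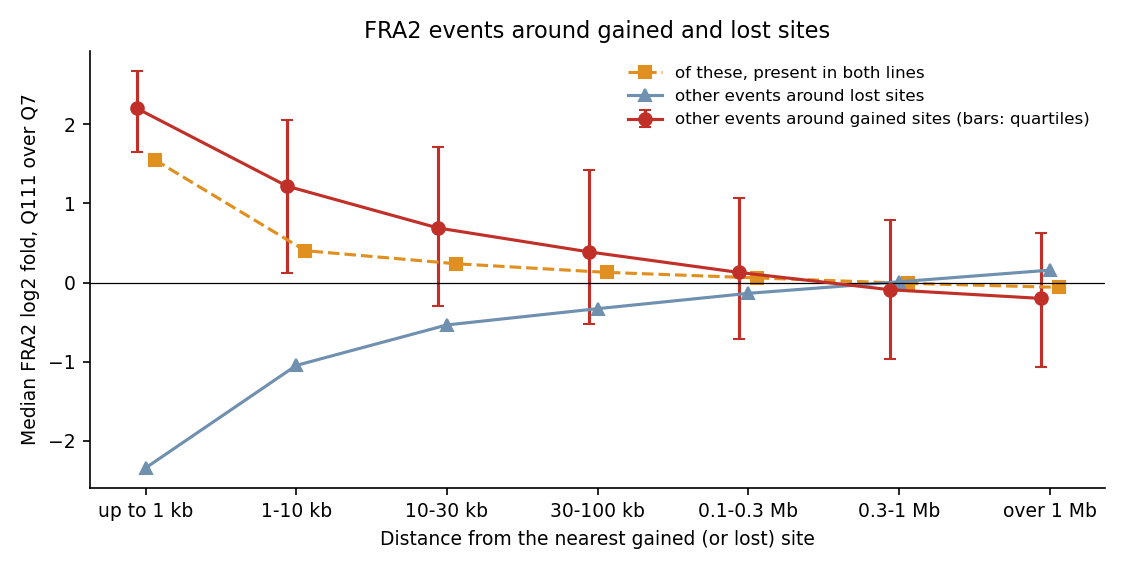
Median log2 fold (Q111 over Q7) of the other FRA2 events by distance from the nearest gained site, for all of them (red, bars are quartiles) and for those present in both lines (orange), and by distance from the nearest lost site (blue). The red median fell from 2.20 within 1 kb to 0.13 at 0.1 to 0.3 Mb, and the blue one rose from -2.34 to -0.14.

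SOX2 had been mapped in Q7, the line in which the rule asks for few FRA2 reads, and it lay far from most gained sites. A SOX2 event was found within 100 bp of 4 of the 1357 gained sites (0.295%, Wilson interval 0.115 to 0.756%) and within 1 kb of 20 (1.47%). Over all FRA2 events the shares were 23.6% within 100 bp and 35.7% within 1 kb, and at lost sites 62.7% and 78.4%. Other FRA2 events marked present in Q111 alone also had few, 2.68% within 100 bp and 8.22% within 1 kb. The median distance to the nearest SOX2 event was 66951 bp for gained sites, 27503 bp for the others present in Q111 alone, 6737 bp for all FRA2 events and 63 bp for lost sites. Within 100 kb the shares were 60.1% for gained sites and 89.4% for all FRA2 events. No SOX2 event lay inside 54 of the 71 groups of 3 or more. The groups differ in length, and how often other stretches of like length lack SOX2 was not counted. SOX2 in Q111 was not analysed here, so these distances say nothing of SOX2 in the line in which FRA2 was high.

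The 4 gained sites with SOX2 within 100 bp were not among those with an empty Q7. Chromosome 8 position 58918421 had 403 FRA2 reads in Q111 and 49 in Q7, and 35 SOX2 reads 23 bp away. Chromosome 2 position 100924136 had 337.5 and 33.1 FRA2 reads and 23 SOX2 reads at 36 bp. At chromosome 1 position 16218560 there were 198 and 18.4 FRA2 reads, with 29 SOX2 reads at 74 bp, and at chromosome 2 position 24175998 there were 85 and 6 FRA2 reads, with 48 SOX2 reads at 12 bp. Their Q7 FRA2 reads of 6 to 49 stood at or above the median of 6 over gained sites. JUND at all 4 was called higher in Q111, with log2 folds of 2.87, 3.94, 2.15 and 2.54. SOX2 reads at these 4 positions were between 23 and 48, around the median of 33 reads of a SOX2 event.

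The other 16 gained sites with SOX2 within 1 kb lay 108 to 992 bp from it. The strongest, at chromosome 6 position 12309001, had 264.9 FRA2 reads in Q111 against 14, with 24 SOX2 reads 127 bp away and 137.7 JUND reads against 8.8. Chromosome 8 position 90881299 followed, with 222.2 FRA2 reads against 26.2 and 25 SOX2 reads at 154 bp. On chromosome 2, positions 101824220 (174.9 reads against 20.4) and 101824540 (68.1 against 6.6) shared 1 SOX2 event of 22 reads. Position 100924001 (92.5 against 8.9) shared the SOX2 event of 23 reads with position 100924136 of the same chromosome. These 2 form 1 FRA2 site of 430 reads against 42 with events within 250 bp summed. The 20 sites therefore do not stand for 20 separate SOX2 events. With FRA2 events within 250 bp summed, 3 of the 20 sites with SOX2 within 1 kb no longer met the rule, against 24 of all 1357. They were chromosome 6 position 71673680, chromosome 15 position 80989711 (log2 fold from 3.07 to 1.94) and chromosome 10 position 21505993 (from 2.96 to 1.03). The weakest FRA2 site of the 16 was chromosome 19 position 36184766, with 48 reads against 5. The most SOX2 reads, 70, lay 253 bp from chromosome 10 position 21505993.

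**Figure D5:**
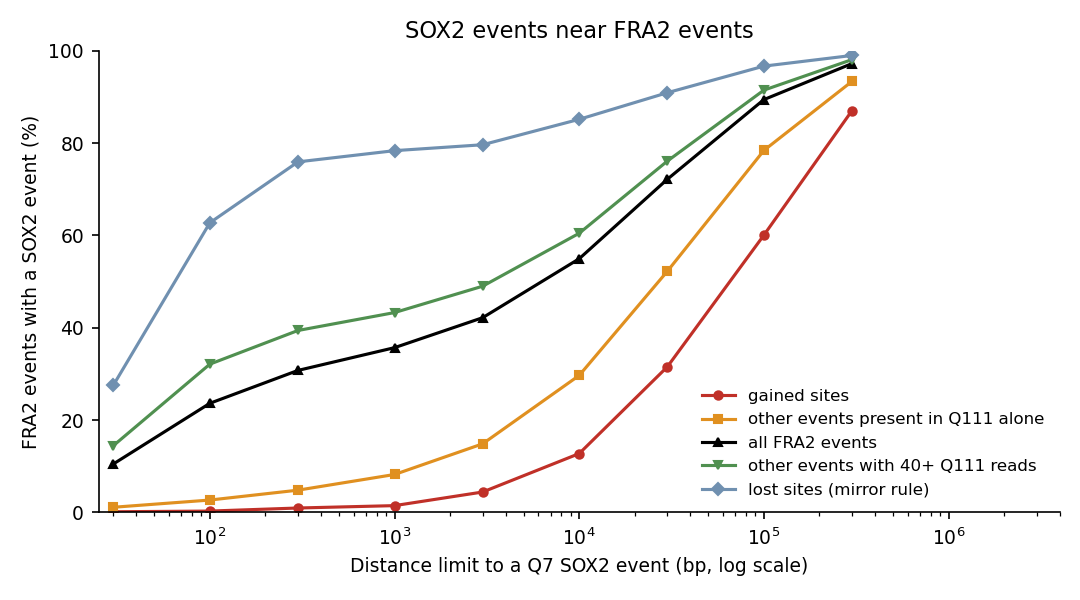
Share of FRA2 events, in percent, with a Q7 SOX2 event within the distance on the horizontal log axis, for gained sites (red), other events present in Q111 alone (orange), all FRA2 events (black), other events with 40 or more Q111 reads (green) and lost sites (blue). Gained sites stayed lowest at each distance drawn, with 1.47% at 1 kb and 12.7% at 10 kb, where lost sites had 78.4% and 85.1%.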

How the data were processed

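Reads were aligned to mm9 with Bowtie 0.12.7, both per the submitters' processing notes. The names of the deposited tables give GPS as the event caller, with no version. Deposited IP columns hold expected counts: reads per event, not scaled and not always whole. They were rounded for the tests. The deposited Control columns hold a signal, control reads already scaled by library. The series lists an IgG sample for each line, but which library was the control is not stated. The deposited q-value (−log10) selected stronger SOX2 events in 1 alternative, and 22 further value columns were not used here.

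JUND was tested event by event (two-sided exact binomial test, Benjamini-Hochberg over events with 20 or more reads), with the expected share from the median log2 ratio of events present in both lines (0.046 for FRA2, 0.072 for JUND), a pseudocount of 0.5 and scipy 1.17.1. FRA2 folds use the same scaling, but the rule uses raw reads. Lists are described by counts beside those of all events, with no list test. Members, lists and distances were chosen with earlier results of these data known. Named positions are the 10 with the most Q111 reads, the 10 with the largest ratio, the 8 largest groups, the 5 with the most JUND reads, the 5 strongest without JUND within 1 kb, those with SOX2 within 100 bp and 3 on either side of each threshold, and not each is printed. JUND events not called or with the largest folds were added after their values were seen. No sequence or annotation of mm9 was used here, so gene location and motifs are not reported. The alternatives changed thresholds, scaling, control subtraction, merging and distances.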

Additional observations from a re-analysis of the deposited data

How the results depend on the processing

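No paired analysis was possible because replicates 1 and 2 were pooled in each library, and for the same reason no replicate could be left out. The number of gained sites followed the rule: 2134 with 6 times Q7 + 0.5, 686 with 12 times, and 2045 with control reads subtracted. With 30 or 60 Q111 reads, median scaling, merging within 100 or 250 bp, or events of many control reads left out, it stayed within 1.5 times (948 to 1695). The JUND calls at gained sites did so under all 9 alternatives, from 717 of 722 events tested (40 or more reads) to 1000 of 1015 (200 bp). The lowest share called was 83.1%, with a 4-fold limit. Under scaling by control reads 887 of 1000 were called higher in Q111, with 1 higher in Q7, and 880 were when a dispersion of 0.05 was assumed. With the dispersion, 9.16% of all JUND events were called higher in Q111. That control scaling moved the median log2 fold of all JUND events from -0.13 to -0.79, and the calls over all of them from 8226 higher in Q111 and 10990 higher in Q7 to 4112 and 20130.

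The share of gained sites with JUND nearby was 68.6% at 50 bp, 77.8% at 500 bp and 86.0% with 60 or more Q111 reads. The median JUND log2 fold was 2.98 with scaling by total reads, 2.20 by control reads, 4.10 with control reads subtracted, and 2.78 and 2.59 with pseudocounts of 1 and 2. SOX2 lay near 0.295% of gained sites at 100 bp and 12.7% at 10 kb. Within 1 kb it lay near 0.59% when SOX2 events needed a q of 5 on the −log10 scale, and near 0.729% with 12 times Q7 + 0.5. Another gained site lay near 16.9% at 10 kb, 31.7% at 50 kb and 66.6% at 500 kb. At 100 kb the share was 34.1% with sites within 1 kb counted as 1, 35.2% with 60 or more Q111 reads, 29.4% with 12 times Q7 + 0.5 and 35.6% without groups of 5 or more. Of the named sites, only chromosome 6 position 71673680 changed direction, to a log2 fold of -0.13 with events within 250 bp merged. Merging within 250 bp, the sites with no FRA2 event within 250 bp, the JUND calls without the site of many control reads, the share without large groups, and the SOX2 share with control subtracted were chosen after seeing the data. At the depth of these tables a JUND event near 20 reads is close to the lower limit of the list.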

Other observations

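Windows of 2 Mb, counted after the values were seen, show where gained sites were dense on a wider scale. Of 1253 windows with FRA2 events, 59 held 5 or more gained sites, together 408 (30.1% of them). The window with the most was on chromosome 8 between positions 58000001 and 60000000, with 14 gained sites among 68 FRA2 events and 0 lost sites. On chromosome 19 between positions 50000001 and 52000000, 11 of 24 FRA2 events were gained sites and no SOX2 event was listed. SOX2 counts were not compared over all windows. The close pair at positions 51019482 and 51019699 is counted as 2 of the 11. The mean control reads in that window were 4.35 in Q7 and 2.07 in Q111, and their part in the count was not tested.

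On chromosome 11, 13 of 44 FRA2 events between positions 110000001 and 112000000 and 10 of 83 in the next window were gained sites. FRA2 reads there were 414 in Q111 and 12 in Q7 at position 110038492, 361 and 6 at position 111758502, 232 and 4 at position 111741574, and 215 and 25 at position 112477121. JUND events at gained sites of both windows, 10 in each, were all called higher in Q111 (exact binomial test, Benjamini-Hochberg adjusted), with 101 reads against 1 beside position 111741574. The other FRA2 events had a median log2 fold of 1.89 in the first window and 0.36 in the second, so the shift of the surrounding events differed between the 2 windows while both held many gained sites. Whether these windows differ beyond counting error was not tested.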
